A study of Mus musculus with 12 samples.

Results

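Imprinted growth genes and the oncofetal Igf2bp family, 10 genes in all, were described over mouse lung tumours and the lung tissue beside them. They were the imprinted genes H19, Igf2, Dlk1, Meg3, Peg3, Plagl1 and Cdkn1c, and the RNA-binding protein genes Igf2bp1, Igf2bp2 and Igf2bp3. The 10 members were chosen by symbol from the 78298 gene rows of the count table, and 9 of them were among the 22190 genes that passed the filter on low counts. They were proposed with the tumour and normal values of these libraries known, so every tumour against normal value of a member below is a description and supports nothing. Igf2 did not pass the filter, and Dlk1 passed it only through the tumour libraries.

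The study profiled RNA from 12 pieces of mouse lung in 4 groups of 3 libraries: normal lung given VEH, normal lung given house dust mite (HDM), LLC tumours given VEH and LLC tumours given HDM. LLC and VEH are given here as the labels spell them. All tumours and the normal tissue next to them were cut out by scalpel under a microscope and snap-frozen, and all libraries carried one batch date. Neither strain, age nor number of animals is given in the labels used here, so the p-values measure the spread between these samples only. Total counts ran from 20608682 to 32765364 per library, which limits the precision of counts, and mitochondrial genes took 1.96% to 5.38% of them in normal libraries and 0.342% to 1.79% in tumours, without overlap; the part of this difference in the tumour against normal values was not tested. The series calls the tissues matched, and each of 6 library-name prefixes joins 1 normal and 1 tumour library, but 2 prefixes join libraries labelled with different treatments (normal VEH replicate 2 with HDM tumour replicate 2, and normal HDM replicate 3 with VEH tumour replicate 3). Markers of lung epithelium were present in all 6 normal libraries, with 15000 to 40450 counts scaled to library size (CPM) summed over 5 alveolar type 2 genes. The same sum ran from 8.55 to 7838 CPM in the tumours, and no marker list for LLC cells was used. These were bulk samples, in which fewer cells of a type and less RNA per cell cannot be told apart.

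Imprinted genes are read mainly from one parental copy, and many of them control growth before birth. Igf2 encodes an insulin-like growth factor read from the paternal copy, and H19, its neighbour, is a long noncoding RNA read from the maternal copy. A control region between them binds the zinc finger protein CTCF on the unmethylated maternal copy, which keeps the shared enhancers from Igf2. The Igf2bp proteins bind mRNAs, Igf2 mRNA among them, and control their stability, transport and translation. The family is known as oncofetal because Igf2bp1 and Igf2bp3 are high in the embryo, low in most adult tissues and high again in many tumours.

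The control region is shown because it keeps the shared enhancers from Igf2 on the maternal copy. In the GRCm39 genome H19 lies at chr7:142129262-142133957 on the minus strand, and Igf2 at chr7:142204503-142220694 on the same strand, with 70546 bases between them. A CTCF core motif (CCGC, then NN, GG, N and GGCAG) was searched on both strands over 8000 bases upstream of H19 and matched 4 times. Capitals mark the core, and each sequence is read on the minus strand.
site 1, chr7:142134040-142134065: acgatgCCGCGTGGTGGCAGtacaat
site 2, chr7:142134495-142134520: atgctaCCGCGCGGTGGCAGcatact
site 3, chr7:142135521-142135546: gggttgCCGCACGGCGGCAGtgaagt
site 4, chr7:142135765-142135790: gagttgCCGCGTGGTGGCAGcaaaat
The H19-side ends of the cores lay 89, 544, 1570 and 1814 bases upstream of the outermost annotated start of H19. Together the cores spanned 1739 bases. Which start of H19 is used in these samples was not tested. Of 1324740 windows of 2000 bases across the genome, 0.0418% held at least 1 match and 2 windows held at least 4. These are matches of letters to a motif whose source is not given here, so nothing is read from their rarity. Methylation and CTCF binding were not measured here.

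The let-7 microRNAs, which hold back oncofetal mRNAs in adult tissue, pair with the 3' UTRs of Igf2bp mRNAs, so their seed and its matches are shown as well. All 8 mature let-7 5p sequences in the RefSeq table share the seed GAGGUAG (bases 2 to 8, in capitals), and the matching site in an mRNA reads CTACCTC.
mmu-let-7a-5p: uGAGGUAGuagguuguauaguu
Igf2bp1, chr11:95852597-95852623: gtgcgaagtaaaCTACCTCaaggtgtg
Igf2bp1, chr11:95850176-95850202: cagtgctattaaCTACCTCagccccag
Igf2bp1, chr11:95849582-95849608: taaatggatgaaCTACCTCagtcctca
Igf2bp1, chr11:95848959-95848985: tttggttttaatCTACCTCttagcaaa
Igf2bp2, chr16:21878216-21878242: cacaaataaaagCTACCTCaggtgttt
Igf2bp3, chr6:49063714-49063740: atttttactcaaCTACCTCaggtattc
Hmga2, chr10:120200122-120200148: gacattcaatttCTACCTCagcatcag
The sites are on the minus strand of GRCm39, within the longest annotated 3' UTR of each gene, and capitals mark the seed match. The Igf2bp1 3' UTR of 6337 bases held 4 matches, and 33.8% of the 958 UTRs of like length held at least 1. Igf2bp2 and Igf2bp3 held 1 each, as did Peg3, where 12.4%, 13.9% and 19.7% of UTRs of like length held a match. Igf2, Dlk1, Plagl1 and Cdkn1c held none. Over 20953 UTRs, 11.9% held a match and 0.248% held 3 or more. The let-7 RNAs themselves were not measured.

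H19 was low in normal lung and varied between tumours. In normal lung given VEH it stood at 0.493, 1.38 and 0.421 CPM in replicates 1, 2 and 3, and under HDM at 3.73, 0.415 and 0.442 CPM. The VEH tumours held 131.2, 15.5 and 7.52 CPM, and the HDM tumours held 169.6, 24.0 and 123.5 CPM. Every tumour library was above every normal one, and the lowest tumour was 2.02 times the highest normal library. The tumours themselves differed by 22.5 times between the highest and the lowest, with 3 libraries at 123.5 CPM or more and 3 at 24.0 CPM or less, and both treatments had libraries on either side.

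The mean of H19 was 51.4 ± 69.2 CPM in VEH tumours against 0.766 ± 0.537 CPM in VEH normal lung (SD, n = 3), a ratio of 67.1. Under HDM it was 105.7 ± 74.4 CPM against 1.53 ± 1.91 CPM, a ratio of 69.2. The fitted log2 fold changes were 6.02 ± 1.42 under VEH and 6.12 ± 1.40 under HDM (SE). Single libraries moved these sizes: without VEH tumour replicate 1 the value was 3.96, and it was 6.80 without normal VEH replicate 2 and 6.62 without VEH tumour replicate 3. Under HDM it was 7.93 without normal HDM replicate 1. The short RNAs Gm56420 and Gm56421, annotated on the opposite strand within H19, were listed with 1928 and 1479 counts against 12752 for H19, and the strand setting of the counting is not stated, so reads of the overlap cannot be told apart.

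Igf2, the growth factor gene on the other side of the control region, was listed with few counts. The normal VEH libraries held 2, 16 and 5 counts (0.0821, 0.503 and 0.210 CPM) and the normal HDM libraries 4, 4 and 19 counts (0.164, 0.151 and 0.700 CPM). In the tumours it was listed with 2 counts in VEH replicate 1 and with 0 in the other 5 libraries. The groups overlapped under VEH, through 2 counts in one library of each tissue, and did not overlap under HDM.

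Over the VEH groups, 23 counts in normal lung against 2 in tumours gave a normal to tumour ratio of 10.4 (95% interval 2.56 to 90.8, counting error only). Under HDM the level was at least 3.20-fold lower in tumours, taking 0.338 ± 0.313 CPM (SD, n = 3) in normal lung against a floor of 3 counts per library, 0.106 CPM. Replicate 3 held 19 of the normal HDM counts, and without it the bound for Igf2 was 1.49-fold. No tumour held more than 2 Igf2 counts, at any level of H19. A read-through gene, Gm49394, shares 3599 exon bases with Igf2 on the same strand, and reads there cannot be assigned to one of them. It held 31 counts over all 12 libraries. How reads shared by both genes were counted is not stated, so Igf2 reads may be missing from these counts. The insulin genes Ins1 and Ins2 held 0 and 2 counts in all.

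**Figure D1:**
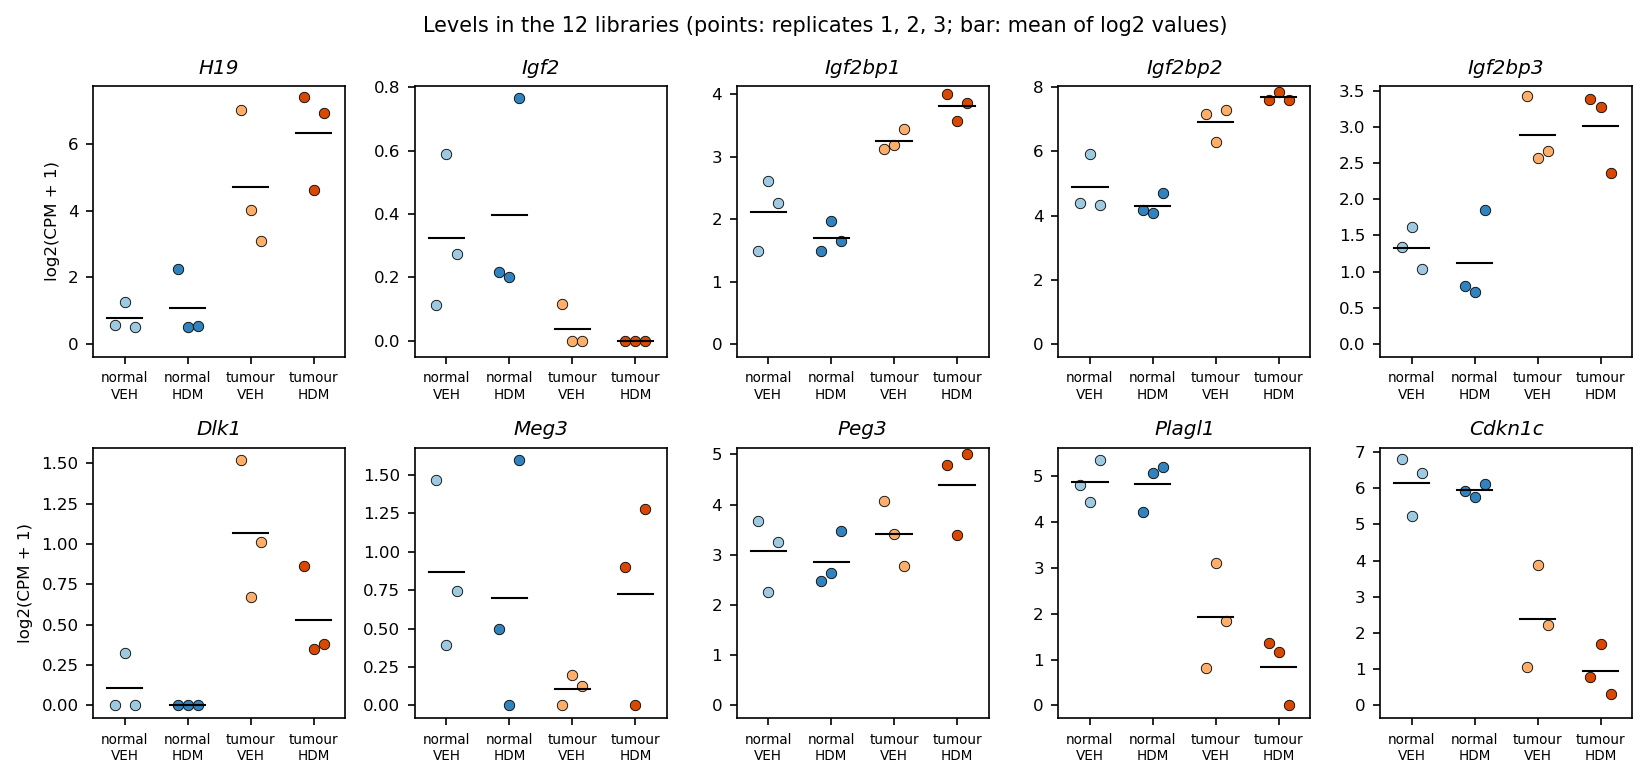
Levels of the 10 members in the 12 libraries, as log2 of CPM plus 1 on the vertical axis, with the 4 groups on the horizontal axis; points are replicates 1, 2 and 3 from left to right, and bars are means of the 3 log2 values. H19 and the Igf2bp genes are higher in all tumours than in all normal libraries, Plagl1 and Cdkn1c are lower, and H19 spreads widely within both tumour groups.

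Per kilobase of exon, Igf2bp2 was the most abundant of the Igf2bp genes in every library. It is read from chr16:21877759-21982499, and stood at 19.96, 59.1 and 19.2 CPM in VEH normal lung and at 16.96, 15.7 and 25.0 CPM in HDM normal lung. VEH tumours held 143.3, 77.6 and 154.3 CPM, and HDM tumours held 194.7, 229.8 and 192.0 CPM. All 6 tumours lay above all 6 normal libraries, and the 3 HDM tumours lay above the 3 VEH tumours. The log2 fold change of tumour against normal was 1.93 ± 0.44 under VEH and 3.42 ± 0.46 under HDM. Without normal VEH replicate 2, the highest normal library, the VEH value was 2.68.

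Igf2bp1, at chr11:95847989-95896911, followed the same order of groups. It stood at 1.81, 5.10 and 3.79 CPM in VEH normal lung, 1.80, 2.91 and 2.14 CPM in HDM normal lung, 7.69, 8.14 and 9.92 CPM in VEH tumours and 15.1, 10.9 and 13.6 CPM in HDM tumours. No tumour overlapped a normal library, and no HDM tumour overlapped a VEH tumour. Its log2 fold change was 1.26 ± 0.36 under VEH and 2.53 ± 0.38 under HDM. The VEH value of Igf2bp1 no longer passed the threshold without normal VEH replicate 3 (1.31) or VEH tumour replicate 3 (1.23).

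Igf2bp3, at chr6:49062144-49192447, stood at 1.52, 2.08 and 1.05 CPM in VEH normal lung and 0.737, 0.642 and 2.62 CPM in HDM normal lung. The VEH tumours held 9.77, 4.91 and 5.35 CPM and the HDM tumours 9.40, 8.71 and 4.16 CPM. The tumours were again all above the normal libraries, but unlike the other Igf2bp genes the treatments overlapped in tumours. The log2 fold change was 2.10 ± 0.59 under VEH and 2.47 ± 0.60 under HDM. Under VEH, Igf2bp3 did not pass without normal VEH replicate 1 (2.08), normal VEH replicate 3 (1.89) or VEH tumour replicate 1 (1.82), and under HDM it was 3.54 without normal HDM replicate 3. Malsu1 overlaps 1685 exon bases of Igf2bp3 on the opposite strand and held 5299 counts against 1333 for Igf2bp3, so the Igf2bp3 level is uncertain where strand was not used in counting.

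Per kilobase of exon, Igf2bp2 made up 83.3% to 91.1% of the summed CPM per kilobase of the Igf2bp genes in normal libraries and 87.9% to 93.4% in tumours. The sum itself ran from 2.51 to 8.77 CPM per kilobase in normal lung and from 11.9 to 33.2 in tumours. Normal VEH replicate 2 was the highest normal library and VEH tumour replicate 2 the lowest tumour. Those libraries also stood apart by markers of other cells. Normal VEH replicate 2 held 129.5 CPM over the 4 proliferation markers against 22.9 to 35.4 CPM in the other normal libraries. Of the fibroblast markers, it held 1414 CPM of Col3a1 against 287.9 to 491.4 CPM in the others. Lum stood at 109.5 CPM there against 4.30 to 23.5 CPM, and the remaining fibroblast markers were not highest there. It also held most of the normal VEH Hmga2 counts, and whether it held tumour tissue was not tested. VEH tumour replicate 2 held the most club and alveolar type 2 markers of the tumours (19050 and 7838 CPM). It held 2860 CPM of the collagen Col3a1 against 7764 to 10280 CPM in the other tumours. This set most of its lower sum over 6 fibroblast markers (4017 against 9485 to 11770 CPM). Pdgfra was also lowest there (115.9 CPM), while Col1a1, Col1a2, Lum and Pdgfrb were not. The list did not move as one: Col3a1 and Lum rose in tumours under both treatments, Col1a2 fell under both and Pdgfrb under HDM, with a median log2 fold change of 0.255 under VEH and 0.179 under HDM. None of these markers was at 0 in a tumour, and the part of such cells in the Igf2bp levels was not tested.

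Dlk1 and Meg3 belong to an imprinted domain on chromosome 12, where Dlk1, a membrane protein that holds back differentiation of progenitor cells, is read from the paternal copy and the noncoding RNA Meg3 from the maternal copy. Both were near the detection limit. Dlk1, at chr12:109418749-109429262, held 0, 8 and 0 counts in VEH normal lung, and 0 in all 3 HDM normal libraries. The VEH tumours held 44, 16 and 22 counts (1.87, 0.595 and 1.02 CPM) and the HDM tumours 20, 8 and 10 counts (0.821, 0.273 and 0.303 CPM). All tumours were above all normal libraries, the nearest pair being 0.273 against 0.252 CPM.

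Under HDM, Dlk1 was at least 4.03-fold higher in tumours, 0.466 ± 0.308 CPM (SD, n = 3) against a floor of 3 counts per library in normal lung, 0.116 CPM. Without HDM tumour replicate 1 the bound for Dlk1 was 2.49-fold. Under VEH its log2 fold change was 3.61 ± 1.24. That value rested on few counts: of the 12 fits that left out 1 library, the call was kept without normal HDM replicate 3 or normal VEH replicate 2 and lost without any of the other 10, and the value was 7.91 without normal VEH replicate 2, the one normal library with counts.

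Meg3, at chr12:109506877-109538165, showed no common direction. Its counts were 43, 10 and 16 in VEH normal lung, 10, 0 and 55 in HDM normal lung, 0, 4 and 2 in VEH tumours and 21, 0 and 47 in HDM tumours. The VEH tumours lay below the VEH normal libraries, with 69 counts against 6 and a normal to tumour ratio of 10.4 (95% interval 4.53 to 29.3, counting error only). Under HDM the sums were 65 and 68 counts, a ratio of 1.06 (0.743 to 1.51), and the groups overlapped. The fitted log2 fold changes of Meg3, -3.41 ± 1.75 under VEH and -0.09 ± 1.47 under HDM, did not pass the threshold, and the HDM value turned to 1.96 without normal HDM replicate 3, 0.60 without HDM tumour replicate 2, and 0.02 without VEH tumour replicate 1 or VEH tumour replicate 3. The VEH value of Meg3 was -2.52 without normal VEH replicate 1, -2.75 without VEH tumour replicate 1 and -4.21 without VEH tumour replicate 2.

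Of 5 other genes in that domain, Rian, Dio3 and Begain were tested and none was called in tumour against normal by edgeR or DESeq2. Rian, a noncoding RNA read with Meg3, had a log2 fold change of -1.80 ± 0.97 under VEH (edgeR adjusted p = 0.157) and -0.60 ± 0.94 under HDM (0.617). No member of the 3 had an unadjusted p below 0.05 in that comparison. Mirg and Rtl1 did not pass the filter, with group totals of 0 to 20 counts.

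Peg3, a zinc finger gene on chromosome 7 (chr7:6706882-6733468) read from the paternal copy, overlapped between tissues under both treatments. It stood at 11.8, 3.78 and 8.59 CPM in VEH normal lung, 4.59, 5.21 and 10.2 CPM in HDM normal lung, 15.8, 9.59 and 5.81 CPM in VEH tumours and 26.7, 9.50 and 30.99 CPM in HDM tumours. The log2 fold change was 0.37 ± 0.56 under VEH, not past the threshold, and 1.75 ± 0.57 under HDM. The HDM value no longer passed without normal HDM replicate 1 (1.54), normal HDM replicate 2 (1.60) or HDM tumour replicate 3 (1.59). Its domain neighbours Usp29, Zim1 and Zfp264 were below the filter, with at most 32 counts in a group.

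Plagl1 and Cdkn1c, which both hold back cell division, were lower in tumours. Plagl1 (Zac1), at chr10:12936248-13007438, is a zinc finger transcription factor gene read from the paternal copy. It stood at 27.2, 20.8 and 40.2 CPM in VEH normal lung and 17.8, 32.9 and 35.7 CPM in HDM normal lung. In VEH tumours it held 0.765, 7.59 and 2.58 CPM, and in HDM tumours 1.56, 1.23 and 0 CPM. The lowest normal library was 2.34 times the highest tumour. Its log2 fold change was -3.00 ± 1.02 under VEH and -4.97 ± 1.13 under HDM.

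The VEH call of Plagl1 was not firm. It was kept without normal VEH replicate 2, HDM tumour replicate 3 or VEH tumour replicate 2 and lost without any of the other 9 libraries, with values from -4.13, without VEH tumour replicate 2, to -2.42, without VEH tumour replicate 1. Under HDM it was -4.22 without HDM tumour replicate 3.

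Cdkn1c, at chr7:143012069-143014806, encodes p57, an inhibitor of cyclin-dependent kinases read from the maternal copy. It stood at 110.6, 36.4 and 85.0 CPM in VEH normal lung and 60.0, 53.6 and 69.0 CPM in HDM normal lung. VEH tumours held 1.11, 13.8 and 3.69 CPM, and HDM tumours 0.739, 2.25 and 0.243 CPM. All tumours lay below all normal libraries, by 2.64 times at the nearest. The means gave normal to tumour ratios of 12.5 under VEH and 56.4 under HDM.

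The fitted log2 fold change of Cdkn1c was -3.63 ± 0.90 under VEH and -5.82 ± 1.02 under HDM. Under VEH it was -5.01 without VEH tumour replicate 2 and -3.03 without VEH tumour replicate 1, and without VEH tumour replicate 3 it was -3.27 and no longer passed. Under HDM it was -6.87 without HDM tumour replicate 2 and -5.19 without HDM tumour replicate 3. Gm44732, a noncoding RNA on the opposite strand, shares 625 exon bases with Cdkn1c and held 5074 counts against 11197.

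Levels of both genes moved with markers of normal lung cells across the tumours. The sum of 3 club cell markers ran from 24510 to 112400 CPM in normal lung, from 443.1 to 19050 CPM in VEH tumours and from 3.37 to 1124 CPM in HDM tumours. The 6 endothelial markers summed to 1509 to 3136 CPM in normal lung, 310.1 to 521.4 CPM in VEH tumours and 87.5 to 285.9 CPM in HDM tumours. VEH tumour replicate 2 held the most club, alveolar type 2 and endothelial markers among the tumours and the most Plagl1 and Cdkn1c, while HDM tumour replicate 3 held the least of each. No marker of these lists was at 0 in a tumour, and the part of normal cells in the Plagl1 and Cdkn1c values was not tested.

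**Figure D2:**
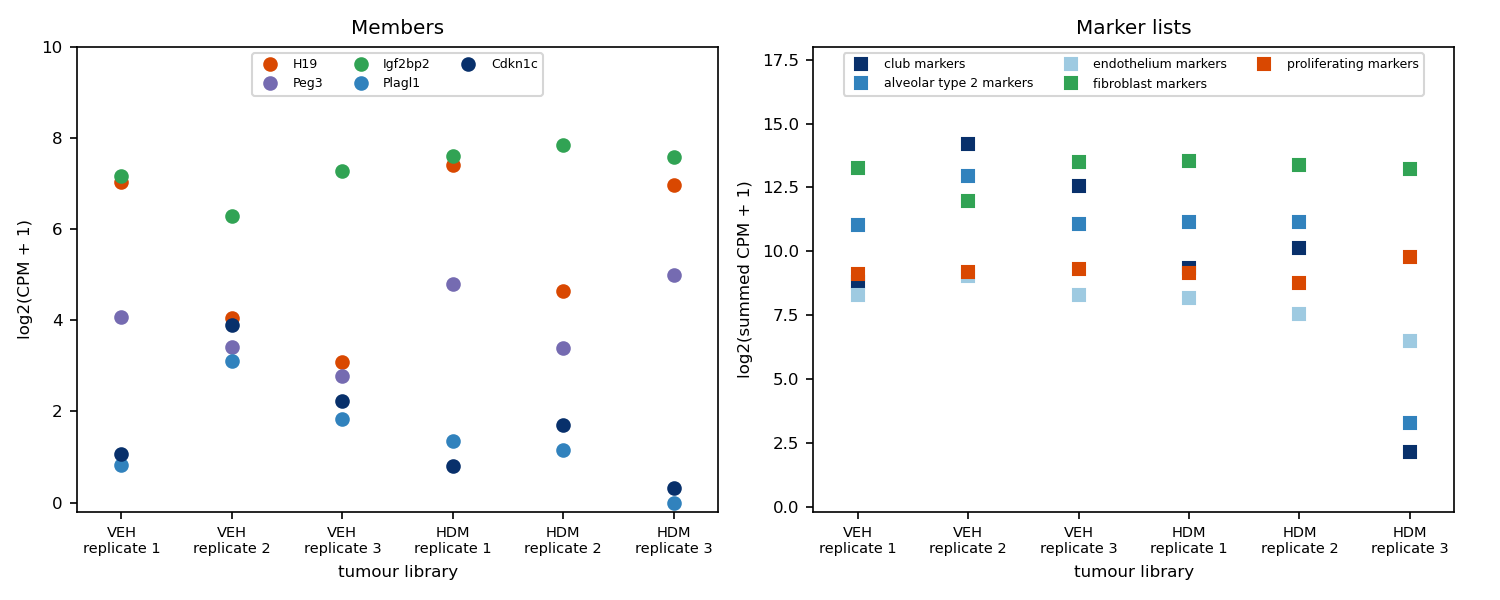
The 6 tumour libraries along the horizontal axis, with 5 members on the left (log2 of CPM plus 1) and 5 marker lists on the right (log2 of summed CPM plus 1); each point is 1 library. Plagl1 and Cdkn1c are highest in VEH replicate 2 and lowest in HDM replicate 3, as the club and alveolar type 2 sums are, while H19 and Peg3 are highest in VEH replicate 1 and HDM replicates 1 and 3.

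Counted over the tests, edgeR called 7 of the 9 members tested under VEH, where 38.9% of the 22190 genes were called (adjusted p below 0.05): 5 higher in tumours (H19, Igf2bp1, Igf2bp2, Igf2bp3 and Dlk1) against 18.2% of genes called higher, and 2 lower (Plagl1 and Cdkn1c) against 20.6% called lower. Under HDM it called 8 of 9, where 51.9% of genes were called: the same 5 and Peg3 higher against 23% of genes, and the same 2 lower against 28.9%. Because the members were chosen with these values known, nothing is read from the counts. Library-name prefixes, which may mark matched tissues, bear on these calls: with the prefix as a block, edgeR no longer called Igf2bp3 (2.03, adjusted p = 0.0578), Dlk1 (7.27, 0.0859), Plagl1 (-3.36, 0.0967) and Cdkn1c (-3.82, 0.0698) under VEH, nor Dlk1 under HDM (0.0911), and H19, Igf2bp1 and Igf2bp2 stayed called under VEH. Without the 4 libraries whose prefix joins both treatments, edgeR did not call Plagl1 under VEH (-2.90, adjusted p = 0.219) or HDM (-4.92, 0.0742) or Cdkn1c under VEH (-3.61, 0.061). The VEH calls of Dlk1 (0.0576), Plagl1 (0.132) and Cdkn1c (0.0501) were lost with no filter on low counts, those of Igf2bp1 (0.0562) and Dlk1 (0.062) with only the compared groups, and those of Dlk1 (0.086) and Plagl1 (0.0526) with the replicate number as a block (edgeR adjusted p). Of all 10, under VEH 5 were higher and 3 lower with no overlap (Meg3 was the third), where 23.9% and 28.5% of genes tested did not overlap, and under HDM 5 were higher and 3 lower (Igf2 was the third), where 29.6% and 33.5% did not.

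**Figure D3:**
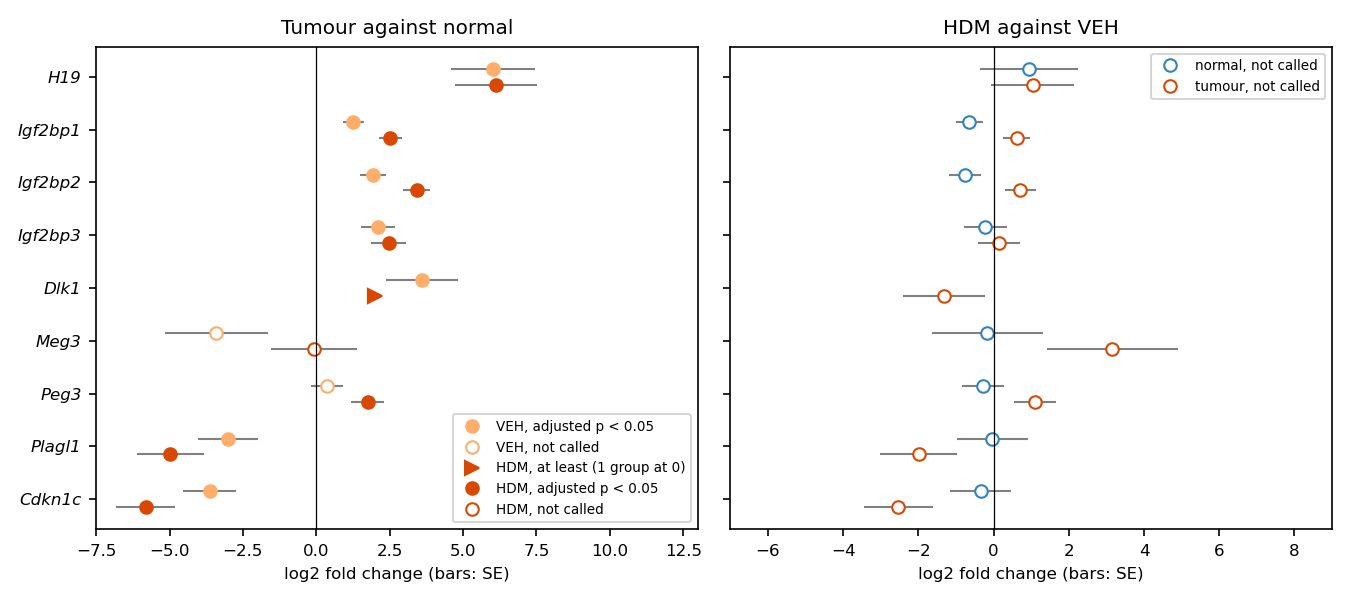
Fitted log2 fold changes of the 9 tested members with their standard errors, tumour against normal on the left and HDM against VEH on the right; filled points had an adjusted p below 0.05, and the triangle is the lower bound for Dlk1 under HDM, whose normal libraries are at 0. Dlk1 is left out of the HDM against VEH values in normal lung, where both groups are near the floor, and no point on the right is filled.

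HDM against VEH asked whether mite exposure went with a change in these genes within a tissue, and none of the 9 tested members passed that test by edgeR. In normal lung 0% of all genes were called by edgeR (1230 of 22190 had an unadjusted p below 0.05, and DESeq2 called 43), and no member had an unadjusted p below 0.05 or was called by DESeq2. Igf2bp2 and Igf2bp1 had log2 fold changes of -0.77 ± 0.43 (edgeR adjusted p = 0.891) and -0.64 ± 0.36 (0.896) there, and the groups overlapped for all 10 members, where 4.47% of genes were higher and 5.85% lower under HDM without overlap. Without normal VEH replicate 2 the Igf2bp2 difference was -0.02.

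In tumours 0.0946% of genes, 21, were called by edgeR (0.00901% higher and 0.0856% lower under HDM), and 0 of 9 members. Of all 22190 genes 3698 had an unadjusted p below 0.05, and of the members only Cdkn1c did. Cdkn1c was 6.20 ± 6.71 CPM in VEH tumours and 1.08 ± 1.05 CPM in HDM tumours (SD, n = 3), with a log2 fold change of -2.53 ± 0.91 (edgeR adjusted p = 0.232). DESeq2 called it, with an adjusted p of 0.0423, among 1311 of all 22190 genes. Its treatment groups overlapped, and it was -3.69 without HDM tumour replicate 2 and -1.15 without VEH tumour replicate 2, where the markers of normal lung cells were highest.

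Igf2bp1 and Igf2bp2 were the only members whose tumour groups did not overlap between treatments, where 11.3% of genes were higher and 10.7% lower under HDM without overlap. The log2 fold changes were 0.62 ± 0.36 for Igf2bp1 (edgeR adjusted p = 0.404) and 0.72 ± 0.42 for Igf2bp2 (0.416), so neither passed the test. H19 stood at 1.04 ± 1.11 (0.671), Peg3 at 1.11 ± 0.56 (0.345) and Plagl1 at -1.99 ± 1.03 (0.355). Meg3 stood at 3.15 ± 1.74 (0.387) and Dlk1 at -1.32 ± 1.09 (0.576). Single libraries moved these values: H19 was 3.20 without VEH tumour replicate 1, Plagl1 was -0.87 without VEH tumour replicate 2 and -1.36 without HDM tumour replicate 3, Meg3 was 2.35 without HDM tumour replicate 3 and 3.95 without VEH tumour replicate 2, and Dlk1 was -1.99 without HDM tumour replicate 1.

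The difference between the treatments in the tumour against normal fold, the interaction, was called for no gene by edgeR (2084 had an unadjusted p below 0.05, and DESeq2 called 222). It was 1.26 ± 0.51 on the log2 scale for Igf2bp1 (edgeR adjusted p = 0.512) and 1.48 ± 0.60 for Igf2bp2 (0.512), both with an unadjusted p below 0.05 and neither called by DESeq2. Larger folds under HDM than under VEH are therefore not shown to differ. For H19 the interaction was 0.10 ± 1.77 (0.994), and for Cdkn1c it was -2.18 ± 1.20 (0.568). The Igf2bp2 interaction was 0.74 without normal VEH replicate 2. That of H19 was 1.90 without normal HDM replicate 1, -0.68 without normal VEH replicate 2 and 2.26 without VEH tumour replicate 1, and that of Cdkn1c was -3.34 without HDM tumour replicate 2 and -0.80 without VEH tumour replicate 2.

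The genes that carry the IGF signal were read from lists chosen by name. These lists, like the members, were chosen with earlier results of these data known. Their tumour against normal counts, shares and p-values are therefore a description and support nothing. The counts for these and the lists below stand beside 18.2% of all genes called higher and 20.6% lower in tumours under VEH. Under HDM the shares of all genes were 23% and 28.9%. Of the ligands only Igf1 was tested, and it fell in tumours, with log2 fold changes of -1.61 ± 0.45 under VEH (edgeR adjusted p = 0.0168) and -1.42 ± 0.44 under HDM (0.0204). Igf2r, the receptor that takes up and degrades IGF2, is imprinted in the mouse and read from the maternal copy. It rose from 111.7 ± 5.24 to 335.0 ± 116.6 CPM under VEH (SD, n = 3), a log2 fold change of 1.58 ± 0.23 (edgeR adjusted p = 0.000833). Under HDM it rose from 116.7 ± 14.8 to 400.9 ± 45.2 CPM, by 1.78 ± 0.23 (0.000243). The Igf1 call was lost under VEH without normal VEH replicate 1 (-1.42), VEH tumour replicate 1 (-1.52) or VEH tumour replicate 3 (-1.45), and under HDM without normal HDM replicate 1 (-1.01) or any 1 of the 3 HDM tumours (-1.42 to -1.18), while the Igf2r call held without each library.

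Of 6 receptors and adaptors, 3 rose (Igf2r, Irs1 and Grb10) and 1 fell (Insr) under each treatment, with a median log2 fold change of 0.25 under VEH and 0.33 under HDM, where the median of all genes was -0.11 and -0.08. Igf1r, the signalling receptor of both IGFs, was at -0.35 ± 0.21 under VEH (edgeR adjusted p = 0.206) and -0.23 ± 0.21 under HDM (0.393). The Grb10 call under VEH (0.54) was lost without normal HDM replicate 1, normal VEH replicates 2 or 3, or VEH tumour replicates 1 or 3 (0.44 to 0.68). The Insr call under HDM (-0.38) was lost without normal HDM replicates 2 or 3, any HDM tumour, or VEH tumour replicates 1 or 3 (-0.37 to -0.25).

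The IGF binding proteins hold IGFs in the circulation and tissue, and their list also held Igfals, which is not itself one of them. Of the 7 genes of this list tested, 1 rose and 3 fell under VEH (median -1.77, with 42.9% lower against 20.6% of all genes). Under HDM 1 rose and 5 fell (median -2.74, with 71.4% lower against 28.9%). Igfbp4 was the one that rose, from 299.5 ± 124.1 to 1692 ± 173.8 CPM under VEH and from 226.3 ± 23.2 to 2047 ± 206.9 CPM under HDM, with log2 fold changes of 2.50 ± 0.27 (edgeR adjusted p = 0.000332) and 3.18 ± 0.28 (8.98e-05). Igfbp5 fell, at -3.47 ± 0.78 under VEH (0.00718) and -4.38 ± 0.82 under HDM (0.00173). Igfbp6 and Igfbp7 also fell under both treatments, Igfbp2 and Igfals under HDM, and Igfbp3 was at 0.15 ± 0.64 under VEH (0.867). Under HDM, Igfbp5 was -5.01 without HDM tumour replicate 2 and -3.73 without HDM tumour replicate 3. There Igfbp2, at -4.46, was -5.24 and -3.73 without the same libraries and lost its call without HDM tumour replicate 1 (-4.35), while under VEH it was called without VEH tumour replicate 2 (-4.29) or HDM tumour replicate 3 (-2.87).

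Among 5 genes that cut binding proteins or block that cutting, 2 rose and 1 fell under VEH (median -0.72), and 2 rose and 2 fell under HDM (median -0.96). Pappa, a protease that cuts Igfbp4, fell, at -2.10 ± 0.70 on the log2 scale under VEH (edgeR adjusted p = 0.0363) and -2.16 ± 0.69 under HDM (0.0218). Stc1, an inhibitor of that protease, rose by 4.27 ± 1.30 under VEH (0.0257) and 4.04 ± 1.29 under HDM (0.0232), while Stc2, a related inhibitor, fell by 3.86 ± 1.01 under HDM (0.00883). Htra1, another protease, rose by 2.10 ± 0.23 under VEH and 1.96 ± 0.23 under HDM. Htra1 held its call without each library, and the others did not all do so. The VEH call of Pappa was lost without any library other than HDM tumour replicates 1 and 3 and VEH tumour replicate 3 (-2.32 to -1.67), with -2.93 without the last, and its HDM call without normal HDM replicate 1 (-1.90), HDM tumour replicate 2 (-1.93) or HDM tumour replicate 3 (-1.73). The Stc1 call was lost without any normal library of the same treatment, and without VEH tumour replicate 3 (2.80) under VEH or HDM tumour replicate 3 (2.31) under HDM. Stc2 under HDM was -4.78 without HDM tumour replicate 1 and -3.10 without HDM tumour replicate 3, and under VEH it was called without HDM tumour replicate 3 (-1.88).

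On distal chromosome 7, the domain of H19, Igf2 and Cdkn1c, 1 of 7 tested rose and 3 fell under VEH (median -1.25), and 1 rose and 5 fell under HDM (median -1.05). Kcnq1ot1, the noncoding RNA that silences the Cdkn1c side of the domain on the paternal copy, fell, at -1.58 ± 0.36 on the log2 scale under VEH (edgeR adjusted p = 0.00699) and -1.05 ± 0.35 under HDM (0.0286). Slc22a18 fell, at -2.37 ± 0.71 and -3.83 ± 0.76 (0.0232 and 0.00219), and Nap1l4 rose by 0.58 ± 0.18 and 0.50 ± 0.18 (0.0265 and 0.0377). Phlda2, which restrains placental growth, was at least 9.46-fold lower in HDM tumours, all 3 at 0 counts, against 0.998 ± 0.251 CPM (SD, n = 3) in HDM normal lung and a floor of 0.106 CPM. The HDM call of Kcnq1ot1 was lost without normal HDM replicates 2 or 3, HDM tumour replicates 1 or 2, or VEH tumour replicates 1 or 3 (-1.10 to -0.77). Slc22a18 lost its VEH call without normal VEH replicate 1 (-2.06) or VEH tumour replicates 1 (-1.79) or 3 (-2.22), and was -3.18 without VEH tumour replicate 2 and, under HDM, -4.53 without HDM tumour replicate 2. Nap1l4 lost its call without normal VEH replicate 1 (0.44) or VEH tumour replicate 1 (0.63) under VEH, and without normal HDM replicates 2 or 3 or HDM tumour replicate 3 (0.47 to 0.56) under HDM.

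Of 28 tested imprinted genes elsewhere in the genome, 3 rose and 7 fell under VEH (median -0.71), and 5 rose and 10 fell under HDM (median -0.26). These shares, 10.7% higher and 25% lower under VEH and 17.9% and 35.7% under HDM, stand beside 18.2%, 20.6%, 23% and 28.9% of all genes, and nothing particular to imprinted genes is read from them. Peg10, a retrotransposon-derived gene of placental growth, rose by 2.72 ± 0.53 under VEH (edgeR adjusted p = 0.0036) and 4.78 ± 0.59 under HDM (0.000225). Dcn, which encodes the matrix protein decorin made by fibroblasts, rose by 1.83 ± 0.47 under VEH (0.0129) and 3.66 ± 0.51 under HDM (0.000369), in tumours where the fibroblast markers Col3a1 and Lum also rose while Col1a2 fell. Peg13 fell, at -2.37 ± 0.39 and -3.40 ± 0.41 under VEH and HDM (0.00161 and 0.000195), as did Zdbf2, at -4.12 ± 1.06 and -3.61 ± 1.06 (0.012 and 0.0154), and Rasgrf1, at -3.75 ± 1.11 and -4.87 ± 1.20 (0.0227 and 0.00653). The part of fibroblasts in the Dcn difference was not tested. Under VEH, Dcn was 2.58 without normal VEH replicate 2, Peg13 was -2.99 without VEH tumour replicate 2, and Zdbf2 was -3.15, -3.47 and -4.88 without normal VEH replicate 2, VEH tumour replicate 1 and VEH tumour replicate 3. The VEH call of Rasgrf1 was lost without normal VEH replicates 1 or 3 or VEH tumour replicates 1 or 3 (-3.61 to -3.08), and it was -6.17 without VEH tumour replicate 2. Under HDM, Zdbf2 was -2.99 without HDM tumour replicate 1 and Rasgrf1 -4.11 without HDM tumour replicate 3.

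A list of oncofetal and let-7 axis genes, which holds genes with and without let-7 matches, went both ways. Of 13 tested, 4 rose and 2 fell under VEH (median 0.76), and 6 rose and 3 fell under HDM (median 0.40). Hmga2, a chromatin protein with 4 let-7 matches in its 3' UTR, rose under HDM by 6.56 ± 1.70 (edgeR adjusted p = 0.00888), from 4.48 ± 3.98 to 421.6 ± 67.1 CPM, and was at 2.90 ± 1.43 under VEH (0.126), where normal VEH replicate 2 alone held 3136 of the 3252 normal counts. Lin28b, which blocks let-7 maturation and also held 4 matches, was at 1.23 ± 0.214 CPM in HDM tumours and 0 counts in HDM normal lung, at least 10.6-fold higher. Trim71, again with 4 matches, rose by 2.98 ± 0.76 under VEH (0.0117) and 4.09 ± 0.80 under HDM (0.00205). Without normal VEH replicate 2, Hmga2 under VEH was 6.75 and passed. Under HDM, Hmga2 was 7.36 without normal HDM replicate 3 and Trim71 4.86 without normal HDM replicate 1.

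Genes without a match in the annotated UTR went either way, and not every gene with matches rose. Myc rose by 2.95 ± 0.94 under VEH (edgeR adjusted p = 0.0307) and 4.23 ± 1.00 under HDM (0.00558), and Plag1, a relative of Plagl1 that promotes growth, rose by 3.09 ± 0.64 (0.00429) and 2.30 ± 0.60 (0.00889). Gpc3, an X-linked brake on fetal growth, fell, at -5.24 ± 0.82 (0.00134) and -4.91 ± 0.81 (0.000889), from 361.0 ± 232.9 to 9.54 ± 7.12 CPM under VEH. Nr6a1, with 8 matches, the most of the list, did not rise. It was at -0.94 ± 0.39 under VEH (0.077) and -0.6 under HDM, not called in either. Myc lost its VEH call without normal VEH replicates 1 or 3 or any 1 of the 3 VEH tumours (2.44 to 3.17), and was 5.49 without normal VEH replicate 2. Gpc3 was -4.59 without normal VEH replicate 2 and -6.02 without VEH tumour replicate 2 under VEH, and -5.50 without HDM tumour replicate 2 under HDM.

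**Figure D4:**
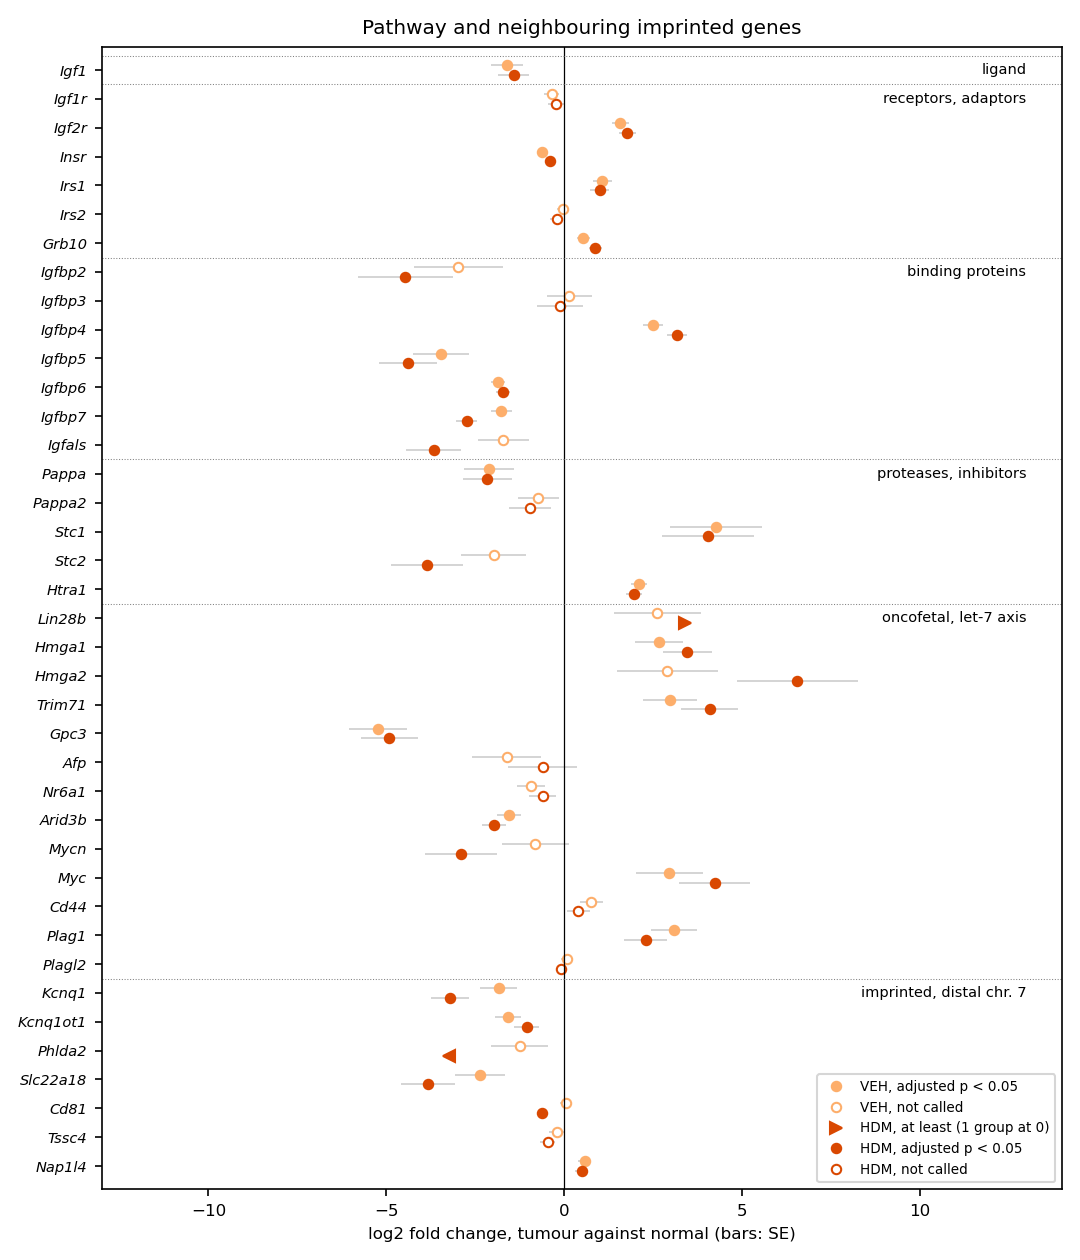
Log2 fold changes of tumour against normal with standard errors for genes of the IGF axis, the oncofetal list and distal chromosome 7, under VEH and under HDM; filled points had an adjusted p below 0.05, and triangles are bounds where 1 group was at 0 in every library. Igfbp4, Igf2r, Stc1 and most called oncofetal genes lie to the right, and most called binding proteins and distal chromosome 7 genes lie to the left.

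Genes that maintain imprints gave 5 higher and 1 lower of 14 tested under VEH (median 0.50) and 4 higher and 1 lower under HDM (median 0.40). Uhrf1, which guides the maintenance methyltransferase to replicated DNA, rose by 3.52 ± 0.44 under VEH (edgeR adjusted p = 0.000519) and 4.28 ± 0.46 under HDM (0.000131). Dnmt1, that methyltransferase, rose by 2.13 ± 0.25 under VEH (0.000431) and 2.13 ± 0.25 under HDM (0.000171), and Zfp445, which protects imprints, fell, at -0.83 ± 0.18 (0.00532) and -0.46 ± 0.18 (0.0489). The proliferation markers summed to 427.9 to 876.8 CPM in tumours against 22.9 to 129.5 CPM in normal lung, and their part in these values was not tested. Ctcf was at 0.09 ± 0.12 under VEH (0.545) and 0.20 ± 0.12 under HDM (0.168). Of the other kinase inhibitors of the Cdkn1c family, Cdkn1a rose by 1.28 ± 0.47 under HDM (0.0399) and Cdkn1b fell by 0.93 ± 0.18 under VEH (0.00287). Uhrf1 under VEH was 4.23 without normal VEH replicate 2. The HDM call of Zfp445 was kept without normal HDM replicate 1 and lost without any 1 of the other 11 libraries (-0.53 to -0.18). Cdkn1a lost its HDM call without normal HDM replicates 2 or 3 or HDM tumour replicates 1 or 2 (1.17 to 1.40) and was called under VEH without normal VEH replicate 2 (1.89). Under HDM, Ctcf was called without normal HDM replicate 3 (0.41) or VEH tumour replicate 3 (0.32), and Cdkn1b without normal HDM replicate 2 (-0.55).

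Over all these lists, 86 genes were tested, and edgeR called none of them in HDM against VEH or in the interaction. In normal lung 6 of the 86 had an unadjusted p below 0.05, beside 1230 of all 22190 genes, and DESeq2 called 0. In tumours 11 of the 86 had one, beside 3698 of all genes. DESeq2 called Igfbp7, Phlda2 and Insr there, among 1311 genes. For the interaction 7 of the 86 had one, beside 2084 of all genes. DESeq2 called Phlda2 there, among 222 genes. Nothing particular to these lists is read from these counts. In tumour against normal, the prefix block ended the edgeR calls of Igf1, Grb10, Pappa, Stc1 (2.34), Slc22a18, Zdbf2, Rasgrf1 and Trim71 under VEH, with adjusted p from 0.0581 to 0.179, and those of Insr, Pappa, Kcnq1ot1, Nap1l4, Zdbf2, Hmga2 and Zfp445 under HDM, with adjusted p from 0.0514 to 0.296. With that block edgeR called Rian (-3.00, adjusted p = 0.039), Nr6a1 (-1.31, 0.0441) and Cdkn1a (1.64, 0.0101) under VEH.

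The genes most like each member over the 12 libraries, by Pearson's r of log2 CPM, are given as a description, since the libraries share tissue, treatment and depth. H19 was most like Htra2 (0.954), Ggta1 (0.953) and Ube2o (0.948), and over the 6 tumours alone most like Fam111a (0.989). Igf2bp2 was most like Col3a1 (0.991), a collagen of the fibroblast list, whose markers did not move as one. Igf2bp1 was most like Ulbp1 (0.981) and Igf2bp3 most like Lrrc15 (0.975). Cdkn1c was most like Gsta3 and Gstk1 (both 0.993), and Plagl1 most like Enpp5 and Dapk2 (both 0.995). Dlk1 was most like Htra1 (0.965), Meg3 most like Trim39 (0.924) and Peg3 most like Timm21 (0.944).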

How the data were processed

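RNA from 12 mouse lung samples (4 groups of 3) was sequenced as paired, stranded reads, per the labels' protocols; whether poly(A) selection or rRNA depletion was used is left unclear there. The authors deposited one table of raw read counts per gene, made with Trim Galore, STAR and featureCounts of Subread on mm39, per the submitters' processing notes; versions, annotation, strand setting and the counting of read mates are not given in the sources used here. Of counts from 1 to 20, 70.2% were even, against 59.5% from 101 to 1000, so counting intervals may be too narrow and floors too low. Folds given as at least a value may then be too large. They use the mean of the other group and do not cover its spread. Symbols, coordinates and 3' UTRs came from GENCODE M39 (GRCm39), which held 78168 of the 78298 gene IDs (0.143% of counts unmatched). Mature microRNAs came from RefSeq (a GRCm38.p6 table, whose coordinates were not used).

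Counts were tested with edgeR 4.0.16 in R 4.3.3: filterByExpr with a minimum count of 10, TMM scaling, a quasi-likelihood fit with robust estimates over all 4 groups, and Benjamini-Hochberg adjustment over 22190 genes. CPM use TMM library sizes; correlations use log2 CPM with a prior count of 2; a floor is 3 counts per library, and floors and intervals cover counting error only. DESeq2 1.42.0, other scalings, filters and blocks, and fits without each library were alternatives. The code was tested on simulated data. The text names all members, any gene of lists chosen by name, and genes among the 3 most like each member; 1 such gene is not reported here. Members and lists were chosen with earlier results of these data known.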

Additional observations from a re-analysis of the deposited data

How the results depend on the processing

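H19 and Igf2bp2 kept direction and call in tumour against normal under all 22 alternatives, in both treatments. Other members' tumour against normal values kept their direction except Peg3 under VEH with library-name prefixes as a block (-0.09) and Meg3 under HDM, which turned positive with library size as the only scaling (0.04), with the replicate block (0.07), with the prefix block (2.05) and without the 4 libraries whose prefix joins both treatments (2.54), and ran from -0.78 to 1.96 when each library was left out; the cause was not tested. Scaling by library size moved the median of all genes from -0.11 to 0.03 under VEH and from -0.08 to 0.10 under HDM.

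Under VEH the 8624 calls became 5603 without those 4 libraries, 9628 without normal VEH replicate 2 and VEH tumour replicate 2 (a pair chosen after seeing the data) and 5733 to 9070 with each library left out. The 7 members called became 4 without a filter, 4 with at least 10 counts in every library (which removes Dlk1, Plagl1 and Cdkn1c), 3 with the prefix block and 3 to 7 leaving out each library. Under HDM the 8 members called became 5 with at least 10 counts in every library. HDM against VEH in tumours gave 8 calls by library size, 52 with no filter, 53 with at least 10 counts in every library, 1311 by DESeq2 (1 member), 0 with only the compared groups, 0 with the prefix block, 0 without the 4 libraries, 1 without that pair, and 0 to 24 leaving out each library. DESeq2 called 43 genes in normal lung and 222 in the interaction. By edgeR the interaction calls ran from 0 to 6 leaving out each library.

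HDM against VEH values that are not past the threshold turned sign easily. In normal lung, the prefix block gave -0.29 for H19, 0.17 for Igf2bp3, 0.94 for Plagl1 and 1.35 for Cdkn1c, library size alone gave 0.03 for Plagl1, and leaving out that pair gave 0.05 for Igf2bp3. Leaving out each library there gave -0.87 to 1.72 for H19, -1.18 to 0.11 for Igf2bp3, -2.12 to 0.72 for Meg3, -0.72 to 0.11 for Peg3, -0.23 to 0.27 for Plagl1 and -0.68 to 0 for Cdkn1c. In tumours, the prefix block gave -0.30 for H19 and -0.04 for Igf2bp1, and Igf2bp3 was -0.10 without the 4 libraries, -0.03 without the pair and -0.05 to 0.54 leaving out each library. The interaction of H19 was -0.01 with the prefix block, -1.18 without the 4 libraries, -1.11 without the pair and -0.68 to 2.26 leaving out each library, and that of Igf2bp3 was -0.08 without the pair. The cause was not tested.

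Of 76 tumour against normal values of 38 list genes given with a test, 60 were called, and 35 of these calls were kept under every alternative run while 25 were lost under at least 1, with no called value changing sign. Values not past the threshold that turned sign were Igfbp3 under VEH (-0.36 with the prefix block, -0.1 without the 4 libraries, -0.09 to 0.77 leaving out each library) and under HDM (0.03 by library size, 0.49, 1.11, -0.80 to 0.85), Rian under HDM (0.26 with the prefix block, 0.87 without the 4 libraries, -1.18 to 0.33), Igf1r under HDM (0.02, 0.08, -0.43 to 0.09) and Ctcf under VEH (-0.01 with the prefix block).

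Library names carry 6 prefixes that each join 1 normal and 1 tumour library, 2 of them with different treatments on the labels. Deviations from the group means had r from -0.355 to 0.303 over 18 pairs with the same replicate number (median 0.076). Over 36 pairs of other numbers the median was -0.024. The 6 pairs of one prefix ran from -0.219 to 0.179, with a median of 0.085. Over 30 normal and tumour pairs of other prefixes the median was -0.021. So few pairs cannot decide whether replicate numbers or prefixes mark animals. With the replicate block, edgeR called 7830 genes and 5 members under VEH, 11001 and 8 under HDM, and 1 gene in HDM against VEH in tumours. Igf2, Dlk1 and Meg3 are limited by depth, with at most 55 counts in a library.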
